A study of Rattus norvegicus with 24 samples.

Results

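The genes described here are 10 activity-induced early response genes of the rat: Fos, Fosb, Jun, Junb, Egr1, Egr2, Npas4, Nr4a1, Arc and Dusp1. They were chosen by identity, as 10 listed Ensembl gene IDs among the 32552 in the deposited count tables, and not by their levels. All 10 IDs were listed for all 24 libraries on the chromosome expected for their symbol, although Egr2 had 0 counts in some VTA libraries. The tables hold IDs without names, so the symbols are those given with the list, and RefSeq places all 10 symbols on the same chromosomes.

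RNA was sequenced from bilateral tissue punches of 2 parts of the reward system, the nucleus accumbens (NAc, a striatal area) and the ventral tegmental area (VTA, the midbrain area whose dopamine neurons project to it). The animals were Sprague Dawley rats given saline or the opioid fentanyl, and the title of the series speaks of withdrawal and of choosing fentanyl over food. In the NAc there were 4 male and 4 female fentanyl rats against 3 male and 3 female saline rats. In the VTA there were 3 male and 3 female fentanyl rats against 2 male and 2 female saline rats, all of which had also given an NAc library. Per the labels all rats were decapitated without anesthesia at the time of day of their last choice session (2 P.M., within 1 h), so all groups share that handling. The sources used here do not give age, the dose of fentanyl or the time since the last drug. A punch holds many cell types, and in such bulk RNA fewer cells of a type and less RNA per cell cannot be told apart. The labelled regions could not be checked against named marker genes, since the tables pair no other ID with a name.

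Early response genes are transcribed within minutes of synaptic activity or growth factor signals, without new protein synthesis. Calcium entry and MAP kinase signalling act on factors already bound at their promoters, SRF at CArG boxes and CREB at cyclic AMP response elements (CRE). Their RNA is short-lived, so a level read at one moment reports recent activity, and in the striatum they are widely used to map which neurons a drug or cue has engaged. Most of the 10 genes encode transcription factors that act on a later wave of genes.

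Positions are those of the deposited tables, whose build the sources used here do not name, and cover the whole annotated gene with its exons and UTRs. The AP-1 subunits are Fos (ENSRNOG00000008015, chr6:109300433-109303299, plus strand), Fosb (ENSRNOG00000046667, chr1:80214494-80221710, minus), Jun (ENSRNOG00000026293, chr5:114011189-114014277, minus) and Junb (ENSRNOG00000042838, chr19:26092974-26094756, minus). Jun and Junb each have 1 exon. The zinc finger factors are Egr1 (ENSRNOG00000019422, chr18:27657628-27661429, plus) and Egr2 (ENSRNOG00000000640, chr20:22454463-22459025, minus). Npas4 (ENSRNOG00000020009, chr1:220261008-220265772, minus) encodes a basic helix-loop-helix factor and Nr4a1 (ENSRNOG00000007607, chr7:142905758-142920216, plus) a nuclear receptor. Arc (ENSRNOG00000043465, chr7:115907097-115910541, minus) and Dusp1 (ENSRNOG00000003977, chr10:16970626-16973418, plus) encode a synaptic protein and a phosphatase.

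The libraries held 3460190 to 5011808 counts in the NAc and 4493742 to 6300965 in the VTA. Of these the 10 genes together took 1159 to 2599 in the NAc and 304 to 501 in the VTA, so counting error is large for the rarer ones. Values below are CPM (counts scaled to library size, with TMM factors over the 24 libraries). Fold changes come from edgeR's quasi-likelihood test on raw counts, with p adjusted by Benjamini-Hochberg over all genes tested and a threshold of 0.05. The p-values measure the spread between these rats. No other annotated feature overlaps any of the 10 genes; the nearest lies 2880 bases from Junb.

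Levels are compared between genes per kb of exon. In the NAc, Egr1, a zinc finger factor, was the highest of the 10 genes. Its median was 79.1 CPM per kb (59.3 to 120.0 over 14 libraries), and its lowest library lay above the highest library of each of the other 9. Nr4a1, an orphan nuclear receptor, followed with 15.5 CPM per kb, then Arc, which encodes a synaptic protein that regulates AMPA receptor endocytosis, with 11.2. Junb had 9.97, Npas4 7.62, Fosb 4.63, Jun 4.13, Fos 3.51 and Dusp1 3.01 CPM per kb, and from Nr4a1 down to Dusp1 the ranges of neighbours in this order overlapped. Egr2 was last at 0.856 CPM per kb, and its highest library (1.85) lay just below the lowest library of Dusp1 (1.9). In the VTA the order differed. Jun (5.67 CPM per kb) and Egr1 (5.49) were first, followed by Fos (3.46), Dusp1 (3.11), Nr4a1 (2.74), Junb (1.83), Arc (0.99), Npas4 (0.496), Fosb (0.227) and Egr2 (a median of 0). The ranges of all neighbours in the VTA order overlapped.

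**Figure D1:**
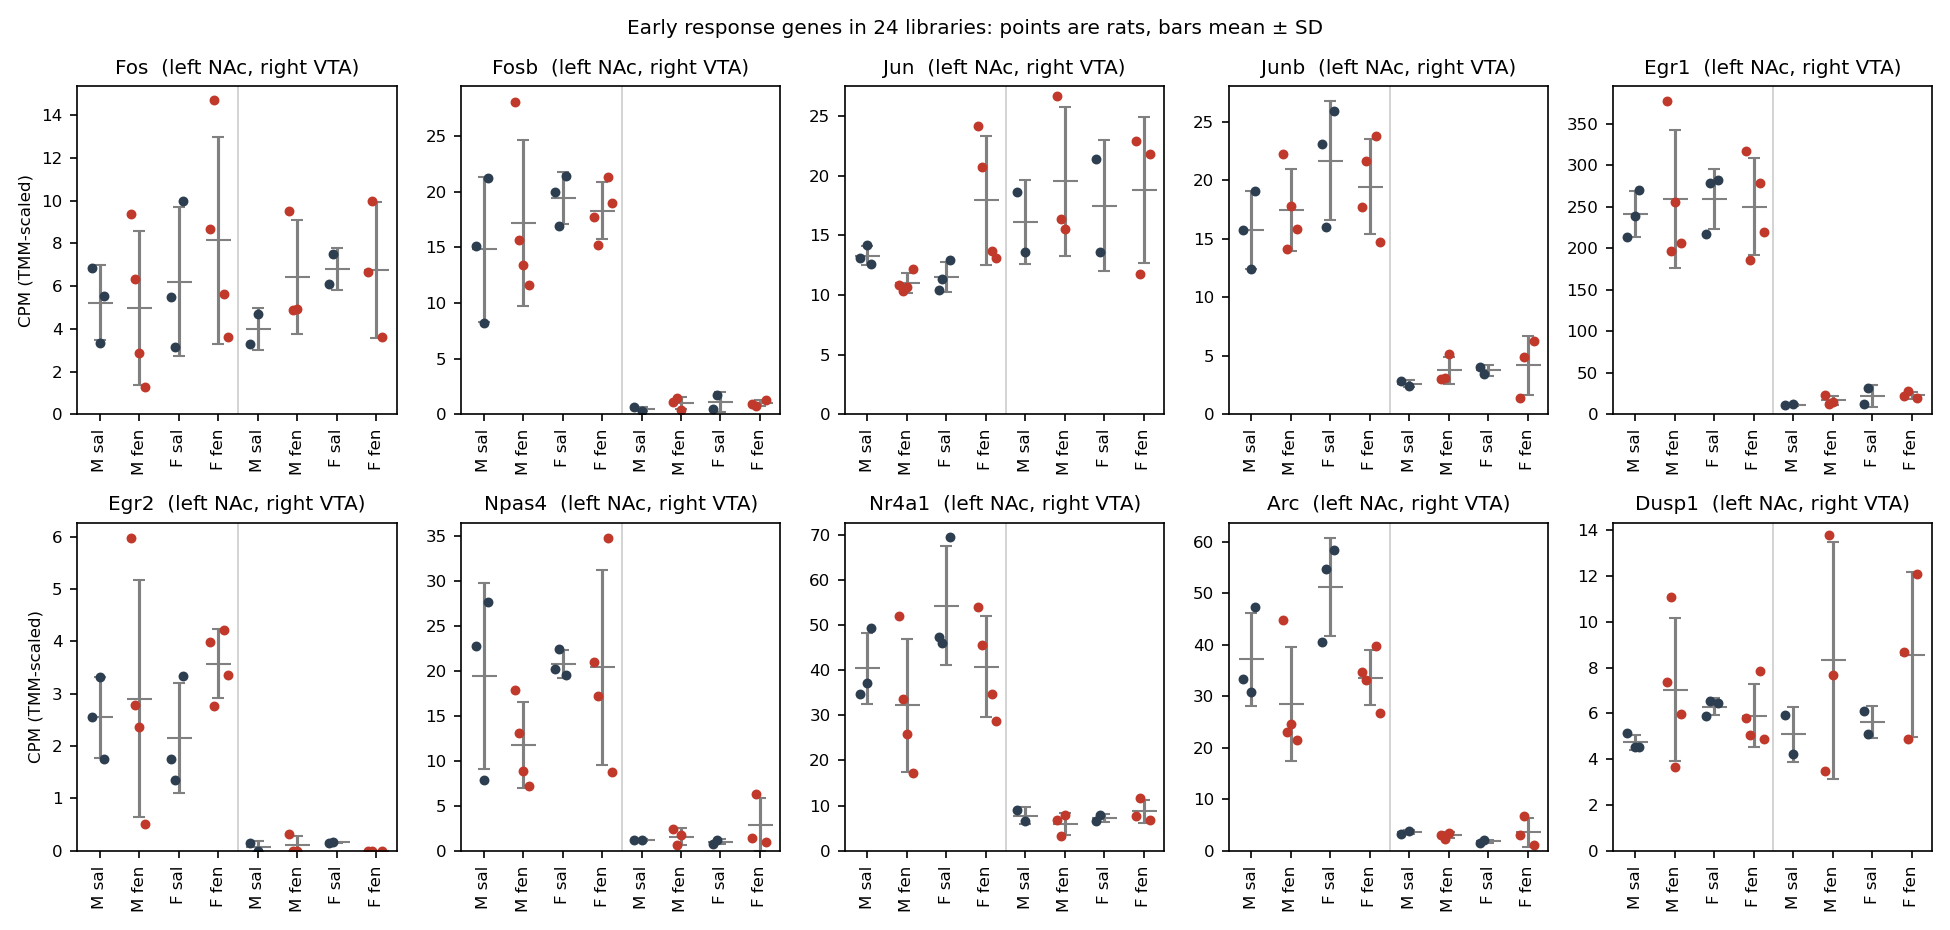
Level of each of the 10 genes in CPM (y axis, linear, from 0) in the 8 groups of sex (M, F) and treatment (sal, saline; fen, fentanyl), with the NAc on the left and the VTA on the right of each panel. Points are rats (dark for saline, red for fentanyl) and grey bars are mean ± SD. For 7 genes every NAc point lies above every VTA point, while the ranges of Fos, Jun and Dusp1 overlap between the regions. The share of all genes with separate ranges was not computed.

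VTA and NAc were set against each other in the 10 rats with both libraries, with rat as a block. All NAc punches were 2.16 mm and all VTA punches 1.19 mm in diameter, so punch size and region cannot be told apart. Of the 10 genes, 7 were lower in the VTA than in the NAc, 1 was higher and 2 did not pass the test. Regional differences were the rule in this comparison, since 62.3% of the 14795 genes tested passed, 31.7% higher and 30.6% lower in the VTA. A count of 8 in 10 is therefore read against that share. How many of all genes had separate ranges, or the same sign in all 10 rats, was not computed. The median log2 fold change of the 10 genes was -3.01, against 0.02 over all genes tested.

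The AP-1 subunits split. Fos and Fosb encode partners of the Jun proteins in the dimeric AP-1 factor, and a truncated product of Fosb is known to accumulate in the striatum with repeated drug exposure. Fosb was 8.16 to 28.1 CPM in the NAc and 0.324 to 1.70 CPM in the VTA. Its log2 fold change was -4.22 ± 0.21 (SE; adjusted p = 3.48e-11). The 54 counts in the VTA and 660 in the NAc of the same rats gave a ratio of 18.7 after scaling to library size. Junb was lower as well, with a log2 fold change of -2.34 ± 0.17 (adjusted p = 2.35e-09), and both genes were lower in the VTA of 10 of 10 rats. Fos was not, although it is the gene most used as an activity marker. It had 1.29 to 14.7 CPM in the NAc and 3.28 to 9.999 CPM in the VTA. Its log2 fold change was -0.02 ± 0.19 (95% interval -0.42 to 0.39, adjusted p = 0.944), and it was lower in the VTA in 5 of 10 rats. Jun, the other partner, was higher in the VTA in 7 of 10 rats, with 11.8 to 26.7 CPM against 10.3 to 24.2 CPM in the NAc. The log2 fold change of Jun was 0.43 ± 0.15 (adjusted p = 0.0186). Without male saline rat 1 it was 0.38 (adjusted p = 0.0758) and without female saline rat 1 it was 0.32 (adjusted p = 0.114).

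The EGR factors, which recognise GC-rich sites, were both far lower in the VTA. Egr1 was 10.6 to 31.4 CPM there and 186 to 377 CPM in the NAc, and its log2 fold change was -3.84 ± 0.13 (adjusted p = 3.25e-11). Egr2, a close relative of Egr1 better known for its role in myelinating Schwann cells, was near the limit of detection in the VTA. It had 5 counts over the 10 VTA libraries and 114 over the NAc libraries of the same rats, a ratio of 34.8 after scaling to library size, with an exact 95% counting interval of 14.5 to 109.0. Its fitted log2 fold change of -4.97 ± 0.55 (adjusted p = 1.47e-06) depends on the prior count for libraries at 0. Both genes were lower in 10 of 10 rats.

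Npas4, a factor induced by calcium entry in neurons that shapes inhibitory synapses, was lower in the VTA too. Its values were 7.24 to 34.8 CPM in the NAc and 0.592 to 6.27 CPM in the VTA, with a log2 fold change of -3.55 ± 0.35 (adjusted p = 6.08e-06). The log2 fold change was -2.47 ± 0.14 for Nr4a1 (adjusted p = 2.08e-10) and -3.64 ± 0.20 for Arc (adjusted p = 2.65e-09), and all 3 genes were lower in the VTA of 10 of 10 rats. Dusp1, a phosphatase that switches off MAP kinases and so feeds back on this response, did not differ between regions beyond its spread. Its log2 fold change was 0.12 ± 0.19 (95% interval -0.28 to 0.53, adjusted p = 0.591), and it was higher in the VTA in 6 of 10 rats.

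**Figure D2:**
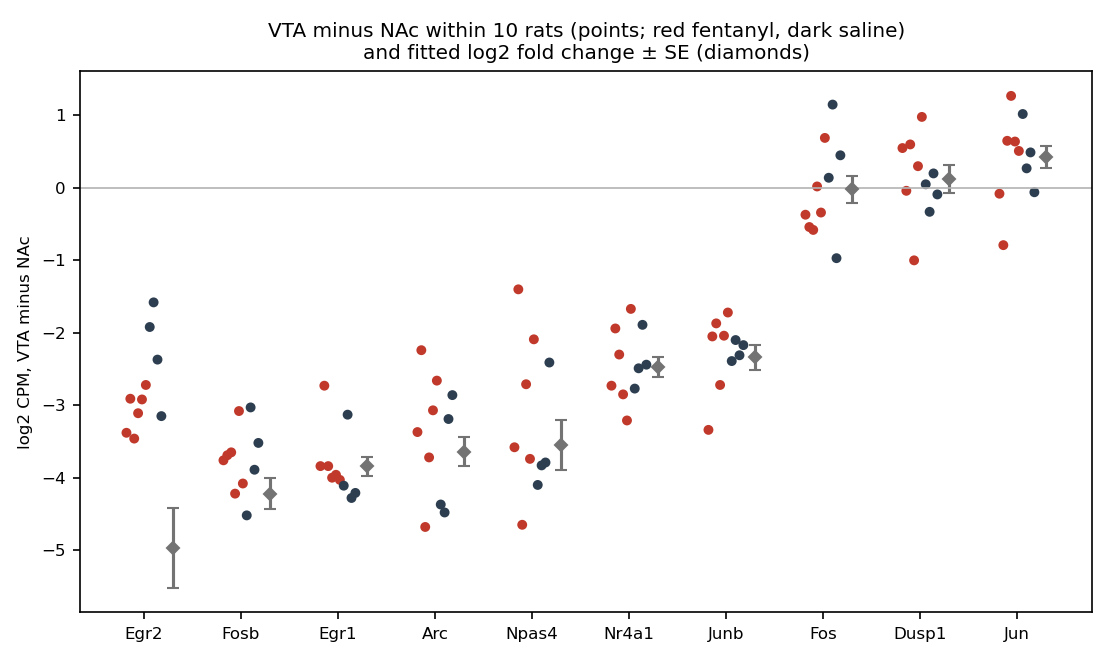
Difference of log2 CPM between the VTA and the NAc of the same rat (y axis) for each gene (x axis), 1 point per rat, red for fentanyl and dark for saline; grey diamonds are the fitted log2 fold change ± SE. For Egr2, Fosb, Egr1, Arc, Npas4, Nr4a1 and Junb all 10 points lie below 0, while those of Fos, Dusp1 and Jun lie on both sides; most points of Egr2 and Fosb lie above the diamond because a prior count of 2 is added before the log.

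Promoter sequences are shown for Egr2, which had the largest regional ratio, for Nr4a1, and for Dusp1, whose regional difference did not pass the test. RefSeq's rat table (build GRCr8) held promoters of 7 of the 10 genes, all but Fos, Jun and Arc. Each run below is the 250 bases before the annotated start, 5′ to 3′ on the gene's strand, with matches in capitals. The capitals mark a CArG box (Egr2), the CRE core TGACG or its complement CGTCA (all 3 genes) and the full CRE TGACGTCA (Dusp1), whose 2 ends are cores too. The positions are chr20:21054442-21054691 on the minus strand for Egr2, chr7:134259888-134260137 on the plus strand for Nr4a1 and chr10:17184603-17184852 on the plus strand for Dusp1.
Egr2: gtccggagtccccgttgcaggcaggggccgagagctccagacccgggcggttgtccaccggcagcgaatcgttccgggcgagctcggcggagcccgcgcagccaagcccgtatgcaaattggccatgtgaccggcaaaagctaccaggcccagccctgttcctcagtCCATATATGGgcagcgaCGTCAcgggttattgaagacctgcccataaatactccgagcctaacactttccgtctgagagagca
Nr4a1: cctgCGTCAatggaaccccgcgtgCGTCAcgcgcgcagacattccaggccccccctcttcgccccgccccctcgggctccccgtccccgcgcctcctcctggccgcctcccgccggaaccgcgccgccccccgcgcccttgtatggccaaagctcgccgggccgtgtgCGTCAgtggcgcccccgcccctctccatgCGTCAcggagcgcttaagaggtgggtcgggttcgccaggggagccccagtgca
Dusp1: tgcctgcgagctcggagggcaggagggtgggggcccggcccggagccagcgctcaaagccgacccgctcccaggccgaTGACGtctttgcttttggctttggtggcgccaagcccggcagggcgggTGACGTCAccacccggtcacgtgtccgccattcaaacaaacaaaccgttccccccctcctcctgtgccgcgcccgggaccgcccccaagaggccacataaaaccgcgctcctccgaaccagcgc

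Both strands of the 7 promoters were searched for these motifs and for the AP-1 site TGANTCA. Egr2 held 1 CArG box, CCATATATGG, at 83 to 74 bases before its start, and Egr1 held the same letters at the same distance plus a further box, CCATATTAGG. No CArG box was found in the other 5 promoters, and 1.5% of the 33469 RefSeq promoters of that length hold one. The full CRE was found in Dusp1 alone of the 7 (1.59% of all promoters). Cores numbered 4 in Nr4a1, 3 in Dusp1, 2 in Egr1, 1 each in Egr2 and Junb and 0 in Fosb and Npas4, and 18.2% of all promoters hold at least 1. The AP-1 site was found in none of the 7 and in 6.34% of all promoters. A match, or the lack of one, gives only the letters in this window before the annotated start. Whether that start is the one used in these rats was not tested, so a lack of matches does not show that a gene lacks the site.

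The study asked which genes differ between fentanyl and saline rats, and whether they differ by sex. In the NAc of females, 1 of the 10 genes passed the test: Jun rose with fentanyl. The other 9 did not pass. Of the 13248 genes tested, 13.5% passed in this comparison, 8.05% higher and 5.45% lower with fentanyl, so a count of 1 in 10 is near the background. At an unadjusted p under 0.05 there were 2 of the 10 genes, Jun and Arc, against 28.9% of all genes. The median log2 fold change of the 10 genes was -0.06 and that of all genes was 0.

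Jun was 13.1, 13.7, 20.7 and 24.2 CPM in the 4 fentanyl females and 10.4, 11.3 and 12.9 CPM in the 3 saline females. All fentanyl females lay above all saline females, and 2 of them (rats 1 and 2) were well above the rest. The share of all genes with separate fentanyl and saline ranges was not computed, in either sex or region. Group means were 17.9 ± 5.41 CPM (SD, n = 4) and 11.5 ± 1.31 CPM (n = 3), which gave a log2 fold change of 0.63 ± 0.20 (adjusted p = 0.0387). The call ended without fentanyl rat 1 (0.48, adjusted p = 0.123) or rat 2 (0.54, 0.103). It ended without saline rat 1 (0.56, 0.153), rat 2 (0.62, 0.11) or rat 4 (0.73, 0.0632), by voom (adjusted p = 0.053) and when no male library was fitted (0.102). It held in the other 14 of 21 alternatives, which include every fit without a male rat and the fit with the replicate block. A male rat bears on this comparison mainly through the spread the groups share, so the fits without one say little about the call. The replicate block rests on numbers not shown to pair rats, and fentanyl rat 8 has no partner in it. Of the fits without a female rat, only those without fentanyl rat 7 or rat 8 kept it. Mitochondrial features took 29.2% to 36.7% of counts in the 4 fentanyl females and 22.1% to 26.1% in the 3 saline females, with the highest share in fentanyl rat 1. With those features left out, the log2 fold change of Jun was 0.63, with an adjusted p of 0.0393.

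In the NAc of males, Jun was 10.3, 10.7, 10.8 and 12.2 CPM with fentanyl and 12.6, 13.1 and 14.2 CPM with saline. Here all fentanyl rats lay below all saline rats, over a narrow range, and the log2 fold change of -0.26 ± 0.21 had an adjusted p of 0.896. The female minus the male effect was 0.90 ± 0.29 on the log2 scale, with an unadjusted p of 0.00554 and an adjusted p of 0.15, so it did not pass. Over 20 alternatives that adjusted p was 0.0573 to 0.357.

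Arc had the second smallest p in females. It was 26.8, 33.1, 34.7 and 39.8 CPM in fentanyl females and 40.5, 54.8 and 58.5 CPM in saline females, so the groups did not overlap, although the nearest rats were close. Its log2 fold change was -0.60 ± 0.23, with an unadjusted p of 0.0166 and an adjusted p of 0.0874. In males Arc was 21.5, 23.0, 24.6 and 44.9 CPM with fentanyl and 30.8, 33.3 and 47.4 CPM with saline, a log2 fold change of -0.39 ± 0.24 (adjusted p = 0.834). Here 3 fentanyl rats lay below all saline rats and fentanyl rat 1 lay far above the other 3. As a mean over both sexes the effect on Arc was -0.50 ± 0.16 (adjusted p = 0.0748). Without male fentanyl rat 1 it was -0.65, with an adjusted p of 0.00705. The unchanged estimate in females (-0.60) was then called as well (adjusted p = 0.0188). That rat bears on the female comparison mainly through the spread the groups share, so this call is not further evidence from females. Arc thus sat near the threshold, with an adjusted p of 0.000137 to 0.513 over 20 alternatives of the mean over both sexes, 4 of which called it. The effect did not differ detectably between the sexes, with a difference of -0.21 ± 0.33 (95% interval -0.91 to 0.49).

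Fos varied more between rats of a group than between groups. In fentanyl females it was 3.60, 5.61, 8.68 and 14.7 CPM and in saline females 3.15, 5.48 and 10.01 CPM. In fentanyl males it was 1.29, 2.88, 6.31 and 9.37 CPM and in saline males 3.32, 5.54 and 6.83 CPM. Each fentanyl range covered most of the saline range of its sex. The log2 fold changes were 0.40 ± 0.56 in females (95% interval -0.81 to 1.62, adjusted p = 0.683) and -0.09 ± 0.64 in males (-1.46 to 1.28, 0.992).

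Egr1 held most of the counts of the 10 genes in the NAc. It was 186, 219, 278 and 317 CPM in fentanyl females and 217, 278 and 282 CPM in saline females. In males it was 197, 206, 256 and 377 CPM with fentanyl and 214, 239 and 270 CPM with saline. In both sexes the saline rats lay inside the fentanyl range. The mean effect over both sexes was 0.03 ± 0.16 on the log2 scale, with a 95% interval of -0.32 to 0.38 (adjusted p = 0.936).

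Npas4 was 8.75, 17.2, 21.0 and 34.8 CPM in fentanyl females and 19.6, 20.2 and 22.5 CPM in saline females. In males it was 7.24, 8.91, 13.1 and 17.9 CPM with fentanyl and 7.86, 22.8 and 27.7 CPM with saline. The male groups overlapped only through saline rat 3, at 7.86 CPM. The log2 fold changes were -0.02 ± 0.44 in females (adjusted p = 0.98) and -0.74 ± 0.48 in males (adjusted p = 0.854).

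The other 5 genes had overlapping fentanyl and saline ranges in both sexes of the NAc. The share of all genes with such overlap was not computed. Nr4a1 averaged 40.7 ± 11.1 CPM in females with fentanyl against 54.3 ± 13.2 with saline, and in males 32.2 ± 14.8 against 40.4 ± 7.85 CPM. Its mean effect was -0.37 ± 0.23 (adjusted p = 0.337). The mean effects were 0.06 ± 0.20 for Fosb, 0.00 ± 0.15 for Junb, 0.45 ± 0.36 for Egr2 and 0.24 ± 0.22 for Dusp1, with adjusted p of 0.476 to 0.997. As a mean over both sexes 0 of the 10 genes passed by edgeR, where 7.51% of all genes did. An unadjusted p under 0.05 was found for 1 (24.5% of all genes). DESeq2 and voom each called 1, Arc. Over all genes, both tools called a number of the same order as the 995 by edgeR, so 1 in 10 is near the background. In males alone 0 of 10 passed, 0 had an unadjusted p under 0.05 and 0 passed by DESeq2 or voom, against 0% of all genes by edgeR and 6.42% with an unadjusted p under 0.05.

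**Figure D3:**
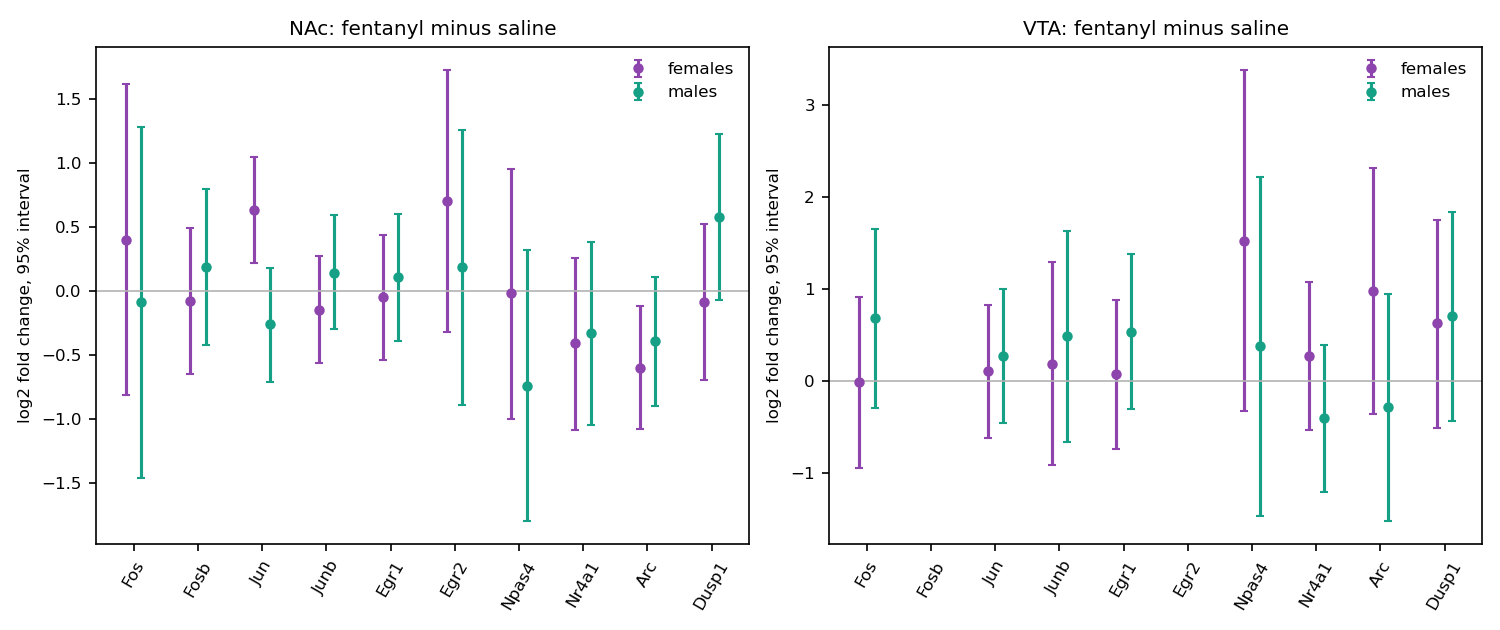
Log2 fold change of fentanyl against saline (y axis) with its 95% interval for each gene (x axis), in females (purple) and males (green) of the NAc (left) and the VTA (right, on a wider scale). In the NAc only the intervals of Jun and Arc in females lie clear of 0; Fosb and Egr2 were too low in the VTA to be tested there.

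When the female effect was tested against the male effect in the NAc, 0 of 10 genes passed by edgeR, DESeq2 or voom against 0.77% of all genes by edgeR. At an unadjusted p under 0.05 there was 1 gene, Jun, against 14.1% of all genes. Saline females and saline males of the NAc were compared in the same fit, where 0.377% of all genes passed. None of the 10 genes did by edgeR, DESeq2 or voom, and 1, Junb, had an unadjusted p under 0.05, as did 11.5% of all genes (log2 fold change 0.46 ± 0.22, adjusted p = 0.433). The estimate was higher in females for 8 of the 10, with a median of 0.31 against 0.009 over all genes. Of all genes, 48.5% had an estimate below 0. The signs of genes measured in the same rats are not independent.

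In the VTA, 8 of the 10 genes passed the low-count filter; Fosb and Egr2 did not. None of the 8 passed the test in females, in males, as a mean over both sexes or for the difference of the sexes, by edgeR, DESeq2 or voom, and 0 had an unadjusted p under 0.05 in any of these 4. By edgeR 0% of the 14400 genes tested passed in each of them, and 7.62%, 4.5%, 8.83% and 3.31% had an unadjusted p under 0.05. As a mean over both sexes the estimate was above 0 for 7 of the 8 genes tested, with a median of 0.34 against 0.005 over all genes. It was above 0 for 7 in females (median 0.24) and for 6 in males (median 0.43). Over all genes, 49.2% of estimates were below 0 for the mean, 48.9% in females and 49.2% in males. The genes were measured in the same rats, so their signs are not independent, and they were not tested as a set. Fos was 3.61, 6.64 and 9.999 CPM in fentanyl females and 6.10 and 7.5 CPM in saline females. In males it was 4.88, 4.91 and 9.52 CPM with fentanyl and 3.28 and 4.70 CPM with saline. The male groups did not overlap but nearly met, and the log2 fold change was 0.69 ± 0.45 (adjusted p = 0.956). These groups held only 3 and 2 rats, and the share of all genes with separate ranges was not computed.

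Jun in the VTA was 11.8, 21.8 and 22.9 CPM in fentanyl females, 13.6 and 21.4 CPM in saline females, 15.5, 16.4 and 26.7 CPM in fentanyl males and 13.6 and 18.6 CPM in saline males. Its fentanyl and saline ranges overlapped in both sexes, and its mean effect was 0.19 ± 0.24 (95% interval -0.32 to 0.70, adjusted p = 0.82). Egr1 was 19.03, 21.7 and 27.6 CPM in fentanyl females, 12.2 and 31.4 CPM in saline females, 12.3, 15.3 and 23.2 CPM in fentanyl males and 10.6 and 12.5 CPM in saline males. The 2 saline females spanned all fentanyl females, and the mean effect was 0.31 ± 0.27 (adjusted p = 0.733).

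Npas4 and Arc were low in the VTA, and each was highest in fentanyl female 2. Npas4 was 0.984, 1.37 and 6.27 CPM in fentanyl females, 0.782 and 1.19 CPM in saline females, 0.592, 1.77 and 2.38 CPM in fentanyl males and 1.14 and 1.25 CPM in saline males. Arc was 1.15, 2.97 and 6.67 CPM in fentanyl females, 1.56 and 2.04 CPM in saline females, 2.37, 3.01 and 3.53 CPM in fentanyl males and 3.28 and 3.89 CPM in saline males. The groups overlapped in both sexes for both genes, and the mean effects were 0.96 ± 0.61 for Npas4 (adjusted p = 0.637) and 0.35 ± 0.42 for Arc (adjusted p = 0.812). Junb was 1.37, 4.90 and 6.24 CPM in fentanyl females, 3.41 and 4.07 CPM in saline females, 3.01, 3.11 and 5.11 CPM in fentanyl males and 2.43 and 2.81 CPM in saline males. The male groups, of 3 and 2 rats, did not overlap but nearly met. The log2 fold change in males was 0.49 ± 0.53 (adjusted p = 0.962), and no share of all genes with separate ranges was computed. Nr4a1 was 6.73 to 11.6 CPM in fentanyl females, 6.57 and 7.84 CPM in saline females, 3.25 to 7.85 CPM in fentanyl males and 6.49 and 9.06 CPM in saline males, with overlap in both sexes. Its estimate was 0.28 ± 0.37 in females (adjusted p = 0.892) and -0.40 ± 0.37 in males (adjusted p = 0.961). Dusp1 had the smallest p of the 8 as a mean over both sexes, at 8.58 ± 3.62 CPM with fentanyl against 5.61 ± 0.697 with saline in females and 8.30 ± 5.16 against 5.08 ± 1.22 CPM in males (log2 fold change 0.67 ± 0.37, adjusted p = 0.599). The fentanyl effect was not shown to differ between the regions for any of the 10. In that test within rats 0 passed by edgeR or DESeq2, 0 had an unadjusted p under 0.05 (5.68% of all genes), and 0% of all genes passed by edgeR.

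Whether the genes varied together between rats was examined over the 14 NAc libraries, 1 per rat, on log2 CPM. Fos was compared with each of the other 9 genes, with permutation p (two-sided) adjusted over those 9. Nr4a1 followed it most closely, with Pearson's r = 0.77 (permutation p = 0.0014, adjusted 0.0126) and Spearman's rho = 0.61 (permutation p = 0.0227, adjusted 0.157). Without the 2 libraries farthest from the median of Fos, r was 0.68 (permutation p = 0.0167, adjusted 0.151). With group means removed r was 0.86 (permutation p = 0.00297, adjusted 0.0267), and rho was 0.8 (permutation p = 0.00711, adjusted 0.064), which did not pass. Egr2 had r = 0.66 (permutation p = 0.0105, adjusted 0.0473) and rho = 0.57 (permutation p = 0.0348, adjusted 0.157). With group means removed Egr2 had r = 0.65 (permutation p = 0.0586, adjusted 0.147) and rho = 0.5 (permutation p = 0.122, adjusted 0.192). Without the 2 farthest libraries its r was 0.51 (permutation p = 0.0928, adjusted 0.169) and its rho 0.57 (permutation p = 0.055, adjusted 0.165). With those libraries left out neither relation passed the adjustment, over 12 libraries in place of 14. The other 7 genes had r of 0.19 (Egr1) to 0.58 (Npas4), with adjusted p of 0.0898 to 0.516.

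Over all 45 pairs of the 10 genes, 42 had a positive r, with a median of 0.40, and 4 had an adjusted permutation p under 0.05 by Pearson and 1 by Spearman. Nr4a1 and Arc were the closest pair, with r = 0.84 (permutation p = 0.00017, adjusted 0.00765) and rho = 0.85 (permutation p = 0.0002, adjusted 0.009). Without the 2 libraries farthest from the median of Nr4a1, their r was 0.73 (permutation p = 0.00788, adjusted 0.122). With group means removed, 40 of the 45 pairs were positive, with a median r of 0.49, and 10 had an unadjusted and 0 an adjusted permutation p under 0.05. Jun stood apart from the rest in this view, with a median r of 0.03 with the other 9 genes (-0.31 to 0.37), against 0.65 for Arc (0.06 to 0.81) and 0.59 for Nr4a1 (0.27 to 0.86). That contrast was not tested. Counts of positive pairs were not computed for other genes, so the 42 and the 40 of 45 have no background here.

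Single rats were high or low for many of the genes at once. How often each rat ranked highest or lowest over all genes was not computed, and the rats named were picked for their counts. Male fentanyl rat 1 had the highest level of its group of 4 for 8 of the 10 genes and male fentanyl rat 7 the lowest for 6. Female fentanyl rat 7 was highest for 6 and rat 8 lowest for 7, and saline female rat 4 was highest of 3 for 8. In a setting chosen after seeing the data, without male fentanyl rat 1 and with group means removed, 38 of 45 pairs were positive, the median r was 0.29 and 3 pairs had an unadjusted permutation p under 0.05.

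**Figure D4:**
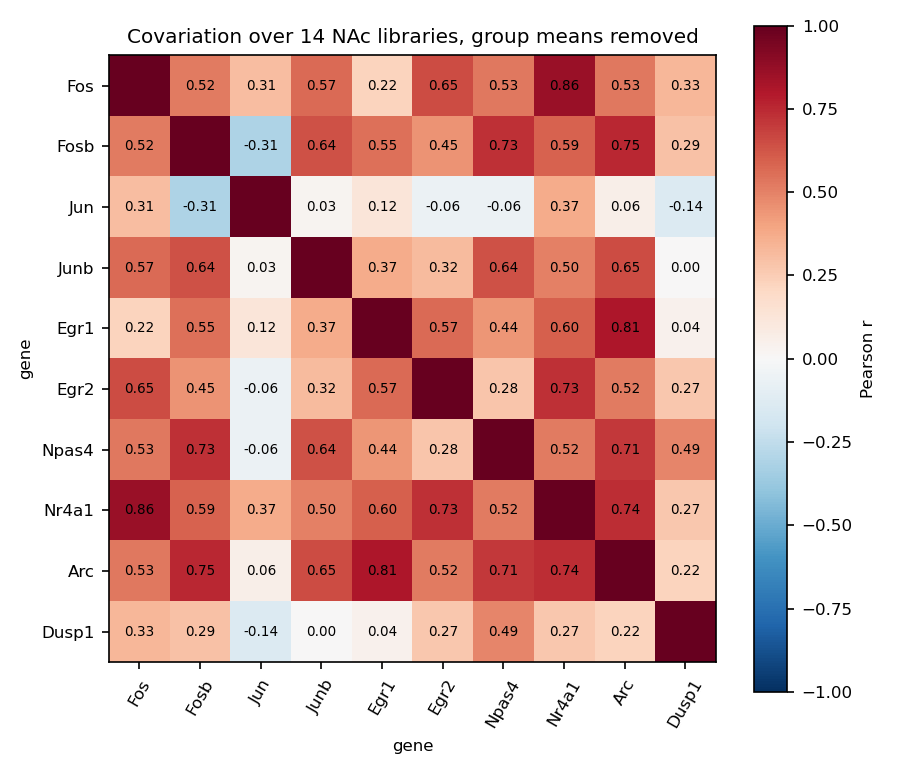
Pearson correlation of log2 CPM for each pair of genes (both axes) over the 14 NAc libraries after the mean of each group was removed; red is positive and blue negative. Fos with Nr4a1 (0.86) and Egr1 with Arc (0.81) are highest, and the row of Jun runs from -0.31 to 0.37.

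A rat's level in the NAc did not go detectably with its level in the VTA. Over the 10 rats with both libraries, Pearson's r between regions was -0.37 (Arc) to 0.56 (Fosb). The smallest permutation p of the 10 genes was 0.0899 for Pearson (Fosb) and 0.0538 for Spearman (Junb, rho = 0.64), and adjusted over 10 genes the smallest was 0.44 and 0.412. For each gene the 2 rats farthest from that gene's median in the NAc were then left out. In this setting r for Fosb was 0.31 and that for Egr1 was 0.81 (permutation p = 0.0134, adjusted 0.134), and 0 genes had an adjusted p under 0.05.

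The genes whose NAc pattern was most like that of the 10 were sought among 14265 other genes whose mean reached 1 CPM, as the Pearson correlation with the mean of the 10 scaled genes after removal of group means, over 14 libraries. This is a description, since the genes share libraries. The first was ENSRNOG00000015719 (chromosome 4, 117293620 to 117296082, minus strand), with r = 0.95 and rho = 0.85. It had 6.98 to 19.3 CPM in the NAc and a mean of 0.168 CPM in the VTA. The second was ENSRNOG00000021001 (chromosome 1, 228118048 to 228132404, plus strand), with r = 0.93 and rho = 0.95, at a mean of 1.77 CPM in the NAc and 2.73 CPM in the VTA. Among all genes compared the median r was -0.01 and the 99th percentile 0.64.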

How the data were processed

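RNA-seq counts of 24 libraries from 14 rats were analysed. The authors deposited raw counts per Ensembl gene, 1 table per library. The submitters' processing notes name Trimmomatic 0.36, Subread 1.5.2, featureCounts, STAR 2.5.2b and DESeq2, with no role or order; build, annotation, strand setting and multiply aligned reads: not given in the sources used here. Groups are the labelled region, sex and treatment, and the animal code in the titles matched the regions of a rat.

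The 4 groups of a region shared 1 fit in edgeR 4.0.16 (R 4.3.3): TMM, filterByExpr, robust quasi-likelihood and two-sided F test, with Benjamini-Hochberg adjustment over all genes tested. Standard errors and 95% intervals come from the F statistic. VTA and NAc were compared in the 10 rats with both libraries, with rat as a block. Alternatives were DESeq2 1.42.0, voom (limma 3.58.1), RLE factors, no filter, no mitochondrial features and 2 groups alone. Further ones were a replicate block within a region, no rat block between regions, and leaving out each rat. Log2 CPM had a prior count of 2; permutation tests used 100000 resamples. Counting intervals (Clopper-Pearson) cover counting error only, because they pool the counts of the 10 rats and leave out the spread between rats. PCR copies are not separate molecules, so these intervals may be too narrow even for counting error. The NAc fit and the fit within rats were run on simulated counts with the same spread for all genes and no rat effect. The pairing was therefore not tested there.

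The genes, lists and tests were chosen with earlier results of these data known. All 10 genes are named, with every library's value for Jun, the 1 called between treatments, and for Fos, Egr1, Arc and Npas4. Lists of other early response genes, regulators and cell type markers, fixed by symbol, were not used here because no table pairs IDs with symbols; for that reason 2 of the 5 genes most alike in pattern are given, by ID.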

Additional observations from a re-analysis of the deposited data

Results flagged for a closer look

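Arc in the NAc of male fentanyl rat 1 was 44.9 CPM, far from the other 3 rats of its group at 21.5 to 24.6 CPM; the gap to its nearest neighbour was 0.864 of the range of the group. Such a check was possible in 20 combinations of gene and group of 4 rats, of which this was the 1 that stood out, and chance gives about 5%. The same rat had the highest Egr1 (377 CPM), Fosb (28.1 CPM) and Egr2 (5.97 CPM) of its group.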

How the results depend on the processing

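The 7 genes lower in the VTA were called with the same sign in all 15 alternatives of the comparison within rats, and the count of genes called was 7 to 8 when 1 rat was left out and 8 with no replicate block. Jun in NAc females was called in 14 of 21 alternatives with the same sign. Among them was every fit without a male rat, which hardly bears on this comparison. The call was lost in most fits without a female rat. The count of 1 in NAc females was 2 with no low-count filter (Jun and Arc) and 0 to 2 without 1 library. With the replicate block it was 2 (Jun, 0.87, and Fos, 1.37 with an adjusted p of 0.047). That block is the number in the animal code. Number 8 was held by fentanyl female 8 alone, so that rat drops out of the blocked comparison. Number 7 was held by fentanyl rats only and number 4 by saline rats only. The call of Fos therefore rests on fewer rats and on numbers not shown to pair them. By voom and with the female groups alone the count was 1, and the gene was Arc (adjusted p = 0.0488 and 0.037) and not Jun. As a mean over both sexes the count of 0 was 1 by DESeq2, by voom and with no low-count filter, each time Arc (adjusted p = 0.034, 0.0373 and 0.000137), and 0 to 1 without 1 library. The cause was not tested. Over all genes, DESeq2 and voom called numbers of the same order as edgeR (1788 in NAc females and 995 for the NAc mean). With the female groups alone 1102 were called. A count of 1 in 10 is near that background, so the calls of Arc do not set the 10 genes apart. With no low-count filter the share of all genes called was not computed. The 2 genes that went with Fos were 1 with group means removed and 0 without the 2 farthest libraries, where fewer libraries were used. Of the 5 genes most alike in pattern by Pearson, 3 were among the first 5 by Spearman. Among 93 estimates that were not called, the sign changed in 110 of 1697 refits and 9 refits gave a call.

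Counts over all genes moved more. By DESeq2, genes called were 6 in NAc males (0 by edgeR), 256 for the sex difference (102), 120 between saline sexes (50), and 37, 7, 39 and 1 in VTA females, males, both and their difference (0 each), and 1 for the regional difference of effects (0). With no low-count filter the same 8 counts were 46, 388, 210, 418, 114, 499, 109 and 148. With the replicate block they were 341 for the NAc mean (995), 236 for the sex difference, 13 between saline sexes and 1 for the VTA mean; with 2 groups alone 1102 in NAc females (1788), 2 in NAc males, 5 in VTA females and 2 in VTA males. Without 1 library, NAc females gave 755 to 2018, the NAc mean 315 to 1299, the sex difference 20 to 299, and the saline sexes 10 to 136.

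The numbers in the animal codes were not shown to pair rats within a region. The residuals of 12 same-numbered NAc pairs correlated at -0.0105 on average (-0.108 to 0.154) and those of 10 VTA pairs at 0.000614 (-0.285 to 0.194). The block changed no other call of the 10 genes. Depth limits Egr2 and Fosb in the VTA, with 5 and 54 counts over 10 libraries.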
